A study of Rattus norvegicus with 18 samples.

Results

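Adm, Vegfa, Slc2a1, Egln1, Egln3, Ndrg1 and Hif1a are genes of the cellular response to low oxygen, and they were followed across the 6 groups of an RNA-seq study of rat H9C2 cells exposed to electric pulses. The 7 genes were chosen by name, with earlier results of these data known. Of these, 6 had a row under their symbol among the 32545 genes of the table. Egln1 had none and was not analysed here. Adm, Vegfa, Slc2a1 and Hif1a passed the filter on low values (3 or more libraries at an FPKM of 1 or above, which 11917 genes met), and Ndrg1 and Egln3 did not. FPKM, fragments per kilobase of gene and scaled between libraries, is a level per length, so genes can be compared with each other. Here the deposited scaling follows the median gene and not the total reads of a library.

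Each group held 3 libraries. In P_ES10 and P_ES50, a compound named in the labels only as PE was present at 50 µmol/L during 48 h, and 10 or 50 pulses followed, each lasting 100 µs at 1500 V/cm. PE was given without pulses in P. ES10 and ES50 cells received 10 or 50 of the same pulses without PE, and NC cells received neither. H9C2 is a permanent line from rat embryonic heart ventricle, so every group is the same line in culture, and the series asks how such pulses affect heart muscle cells and their mitochondria. The time between the pulses and the harvest is not given in the sources used here. Nothing in the labels says that replicates were separate cultures, and the spread behind each p-value may be technical.

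The libraries held 14004929 to 17247201 reads on genes. Mitochondrial genes took 46.7 to 49.6% of the reads in P_ES50 and 91.4 to 92.9% in ES50, against 5.41 to 14.0% in the other 4 groups. Nuclear genes were therefore read at 7813779 to 8060502 reads in P_ES50 and at only 1230554 to 1466851 in ES50. Of 10 cardiomyocyte markers, 3 (Tnnt2, Tnni3 and Pln) reached an FPKM of 1 in all NC libraries, while Myh6, Myh7, Actc1 and Ryr2 were near 0. Of 5 skeletal myoblast markers, 3 (Myod1, Des and Cdh15) reached it. All 4 smooth muscle markers and 4 of 5 fibroblast markers reached it, and none of the 3 endothelial and 4 macrophage markers found did. The myoblast markers summed to 88.5 to 97.4 FPKM in ES50 and 126.8 to 128 in NC, and the cardiomyocyte markers to 47.6 to 56.7 in ES50 and 15.4 to 17.2 in NC. Genes within both lists went both ways. Mean Cdh15 was 14.6 FPKM in ES50 and 85.4 in NC. Myod1 (57.5 and 32.0), Des (19.1 and 9.10) and Myog (2.44 and 0.951) were higher in ES50, and Myf5 was near 0 in both. Tnnt2 (40.2 and 12.1) and Pln (12.3 and 1.64) were higher in ES50, and Tnni3 was lower (0.512 and 2.18). In ES50, 5 of the 10 cardiomyocyte markers had no reads. In ES50 the smooth muscle markers summed to 5420 to 5647 FPKM against 2158 to 2349 in NC, and the fibroblast markers to 376 to 394 against 2039 to 2089. The part of these shifts in the results below was not tested. In bulk RNA, fewer cells of a type and less RNA per cell cannot be told apart.

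Hypoxia-inducible factor (HIF) is a transcription factor made of an oxygen-regulated alpha subunit, such as the product of Hif1a, and a constant beta subunit encoded by Arnt. When oxygen is present, prolyl hydroxylases of the EGLN family mark the alpha subunit, the VHL ubiquitin ligase binds it and it is degraded. When oxygen is low, the subunit accumulates, enters the nucleus and raises genes for blood supply (Vegfa, Adm), glucose uptake (Slc2a1), stress tolerance (Ndrg1) and its own degradation (Egln1, Egln3). This control acts on the protein, which was not measured, and several of these genes also respond to other signals.

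The starts of the 4 tested genes are shown because HIF acts through a short core motif, ACGTG or GCGTG, in the DNA near the genes it controls. Each window runs from 250 bases before to 50 after the annotated start and comes from RefSeq on build GRCr8, while the expression table uses Rnor 6.0. A window was found by symbol for 6 of the 7 genes (Ndrg1 was not matched). Both motifs were searched on both strands, so that CACGT and CACGC also count, and capitals mark every match. Vegfa has a further annotated start, whose window held no match.
Adm at chr1:174179950-174180249, plus strand: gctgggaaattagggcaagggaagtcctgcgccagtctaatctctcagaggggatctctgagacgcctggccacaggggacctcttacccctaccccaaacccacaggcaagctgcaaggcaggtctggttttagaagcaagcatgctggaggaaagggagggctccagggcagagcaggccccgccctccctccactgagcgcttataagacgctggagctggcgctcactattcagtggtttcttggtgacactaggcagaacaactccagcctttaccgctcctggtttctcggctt
Vegfa at chr9:22452604-22452903, plus strand: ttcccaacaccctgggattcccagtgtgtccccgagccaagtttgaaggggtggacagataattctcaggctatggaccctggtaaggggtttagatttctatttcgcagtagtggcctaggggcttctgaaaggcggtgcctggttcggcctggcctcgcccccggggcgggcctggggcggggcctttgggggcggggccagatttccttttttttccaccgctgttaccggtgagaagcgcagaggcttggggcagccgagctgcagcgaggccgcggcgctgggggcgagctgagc
Slc2a1 at chr5:138002272-138002571, plus strand: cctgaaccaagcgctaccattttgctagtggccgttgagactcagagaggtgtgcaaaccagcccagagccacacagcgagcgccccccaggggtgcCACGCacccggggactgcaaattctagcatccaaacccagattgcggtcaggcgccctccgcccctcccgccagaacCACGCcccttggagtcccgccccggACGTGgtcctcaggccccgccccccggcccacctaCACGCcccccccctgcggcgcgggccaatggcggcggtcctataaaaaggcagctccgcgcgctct
Hif1a at chr6:98359648-98359947, plus strand: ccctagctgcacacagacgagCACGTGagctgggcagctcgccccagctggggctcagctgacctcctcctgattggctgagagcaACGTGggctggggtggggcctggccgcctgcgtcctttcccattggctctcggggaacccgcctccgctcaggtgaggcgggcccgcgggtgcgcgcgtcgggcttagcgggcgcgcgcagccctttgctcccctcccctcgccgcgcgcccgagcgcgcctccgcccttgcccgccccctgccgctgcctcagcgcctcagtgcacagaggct
The Slc2a1 window held 1 ACGTG and 3 GCGTG. The Hif1a window held 3 ACGTG, of which a pair overlaps as CACGTG, which reads the same on both strands. The Adm and Vegfa windows held neither motif, which says only that these letters are absent from these 300 bases. Of 33469 windows of that length, 41.6% held at least 1 of the motifs, so a match is common and is a description of the sequence only.

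Adm encodes the precursor of adrenomedullin, a secreted peptide that widens blood vessels. It had the widest range of fold among the 4 tested members (ENSRNOG00000027030, chromosome 1, 175445088 to 175447259, plus strand, Rnor 6.0). With PE, its level was 5.44, 5.25 and 4.63 FPKM without pulses (P), 25.1, 25.2 and 26.5 after 10 pulses (P_ES10), and 34.2, 31.0 and 33.3 after 50 pulses (P_ES50). Without PE it was 12.3, 11.7 and 12.3 FPKM in NC, 27.1, 28.5 and 31.4 in ES10, and 0.974, 0.822 and 0.614 in ES50. With PE the pulsed libraries were high at both pulse numbers, while without PE the ES10 libraries were high and the ES50 libraries were the lowest of all 18. In order of the mean, P_ES50 stood above ES10, P_ES10, NC, P and ES50, and only P_ES50 and ES10 overlapped among neighbours. Such separation is common here, as the libraries of P_ES50 and P did not overlap for 50.6% of all tested genes. The share was not computed for other pairs of groups, which also limits the overlaps given for Hif1a and Vegfa below.

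In limma's model of all 18 libraries, with Benjamini-Hochberg adjustment over all tested genes, Adm rose in P_ES10 versus P by a log2 fold change of FPKM plus 1 of 2.13 ± 0.08 (standard error; adjusted p = 1.27e-10). For genes at low levels, adding 1 makes such a change smaller than the change in FPKM. It rose in P_ES50 versus P by 2.47 ± 0.08 (adjusted p = 3.91e-12), and in ES10 versus NC by 1.19 ± 0.08 (adjusted p = 3.48e-07). It fell in ES50 versus NC, at -2.87 ± 0.08 (adjusted p = 5.95e-14), and in ES50 versus ES10, at -4.06 ± 0.08. Scaled to total reads, ES50 versus NC was at -4.23. The ES50 level rests on 3, 3 and 2 reads, against 387, 430 and 417 in NC. Over the summed reads Adm was 15.1-fold lower in ES50 than in NC, with an exact 95% counting interval of 7.64 to 35.0. Adm also fell in P versus NC, at -1.10 ± 0.08 (adjusted p = 4.46e-07).

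The response of Adm to pulses differed with PE. The rise after 10 pulses was larger with PE than without by 0.93 ± 0.11 (interaction, adjusted p = 6.70e-04), though on reads thinned to 1 nuclear depth the adjusted p was 0.218 (5.16e-05 to 0.218 over 22 alternatives). The levels reached after 10 pulses were 25.6 ± 0.773 FPKM in P_ES10 and 29.0 ± 2.24 in ES10 (SD, n = 3), and their difference did not pass the test at -0.17 ± 0.08 (adjusted p = 0.420). After 50 pulses the interaction was 5.34 ± 0.11 (adjusted p = 1.24e-14). P_ES50 stood above ES50 by 4.23 ± 0.08, and above P_ES10 by 0.35 ± 0.08 (adjusted p = 0.00468). This last step turned to -0.44 when libraries were scaled to total reads and lost its call on thinned reads.

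**Figure D1:**
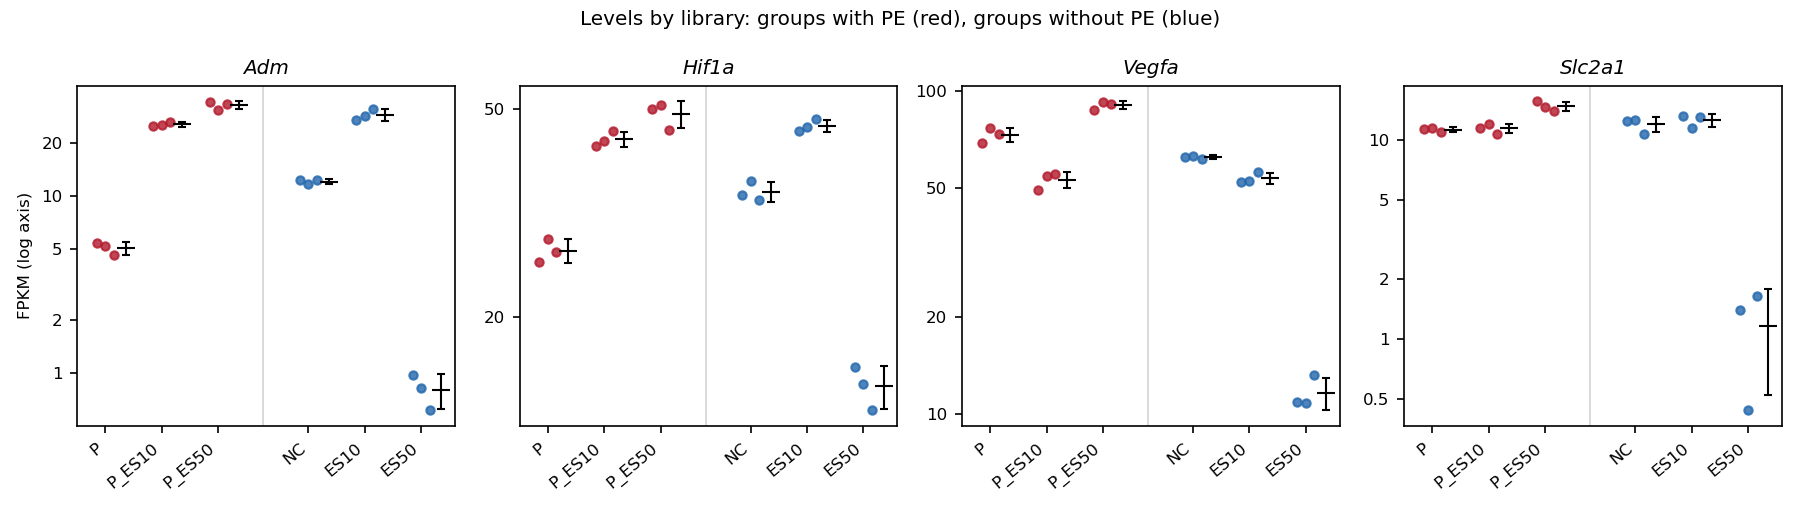
FPKM of Adm, Hif1a, Vegfa and Slc2a1 in every library, on log axes of their own, for the groups with PE (red) and without PE (blue), each with 0, 10 and 50 pulses. Points are libraries and black marks are the mean ± SD of 3. ES50 libraries are the lowest in all 4 panels, and Adm in P_ES50 is at 31.0 to 34.2 FPKM, above P at 4.63 to 5.44.

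Hif1a encodes the oxygen-regulated subunit of HIF itself (ENSRNOG00000008292, chromosome 6, 96810907 to 96856052, plus strand). With PE it was 25.5, 28.2 and 26.7 FPKM in P, 42.5, 43.4 and 45.5 in P_ES10, and 50.1, 51.0 and 45.7 in P_ES50. Without PE it was 34.3, 36.4 and 33.5 FPKM in NC, 45.4, 46.2 and 47.8 in ES10, and 16.1, 14.9 and 13.2 in ES50. The 6 groups fell in the same order as for Adm, and the top 3 of them (P_ES50, ES10 and P_ES10) overlapped with their neighbours while NC, P and ES50 stood apart. Hif1a rose in P_ES10 versus P by 0.69 ± 0.06 (limma adjusted p = 2.10e-06) and in ES10 versus NC by 0.41 ± 0.06 (8.32e-04). It rose in P_ES50 versus P by 0.84 ± 0.06 (1.84e-07), but was at -0.03 there when scaled to total reads. It fell in ES50 versus NC, at -1.19 ± 0.06 (1.74e-10), with 422 reads left in the 3 libraries and -4.24 when scaled to total reads, and in P versus NC, at -0.36 ± 0.06 (limma adjusted p = 0.00237). On thinned reads the P versus NC change had an adjusted p of 0.0943, against 2.25e-04 to 0.0943 over its 16 alternatives. The interaction of PE and 10 pulses did not pass at 0.28 ± 0.09 (limma adjusted p = 0.274). It passed without the ES50 libraries in the fit (0.0420) and with only the 4 groups compared (0.0292), in a range of 0.0292 to 0.827 over 22 alternatives. After 50 pulses the interaction was 2.03 ± 0.09 (limma adjusted p = 6.60e-11).

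Vegfa encodes vascular endothelial growth factor A, the main signal for new blood vessels (ENSRNOG00000019598, chromosome 9, 17340341 to 17355681, plus strand). Per length, it had the highest mean of the 6 genes with a row in every group but ES50. With PE it was 69.3, 76.7 and 73.5 FPKM in P, 49.6, 54.6 and 55.4 in P_ES10, and 87.7, 92.3 and 91.4 in P_ES50. Without PE it was 62.7, 63.2 and 61.6 FPKM in NC, 52.4, 52.8 and 56.2 in ES10, and 10.9, 10.8 and 13.2 in ES50. After 10 pulses the mean of Vegfa was below that of its own control with and without PE, the opposite side from Adm and Hif1a. Among neighbours in the order of means only ES10 and P_ES10 overlapped.

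Vegfa fell in P_ES10 versus P, at -0.45 ± 0.07 (limma adjusted p = 1.29e-04). In ES10 versus NC it was at -0.21 ± 0.07 and missed the threshold (limma adjusted p = 0.0584), although it passed in 6 of the 16 alternatives (0.00506 to 0.334). The interaction of PE and 10 pulses was -0.24 ± 0.09 and did not pass (limma adjusted p = 0.433). After 50 pulses Vegfa rose in P_ES50 versus P by 0.30 ± 0.07 (limma adjusted p = 0.00278), but fell there by 0.59 when scaled to total reads. It stood above P_ES10 in P_ES50 by 0.76 ± 0.07, against -0.04 with that scaling. It fell in ES50 versus NC, at -2.33 ± 0.07 (limma adjusted p = 7.34e-14), with 297 reads in ES50 and 16316 in NC, and -5.30 when scaled to total reads. The interaction of PE and 50 pulses was 2.64 ± 0.09 (limma adjusted p = 3.97e-12). In P versus NC Vegfa was at 0.22 ± 0.07 (limma adjusted p = 0.0439). That call was lost with any of the 6 libraries left out (adjusted p of 0.0531 to 0.169) and with 5 other settings.

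Slc2a1 encodes the basal glucose transporter of the cell surface (ENSRNOG00000007284, chromosome 5, 138154673 to 138182897, plus strand). With PE it was 11.3, 11.5 and 10.9 FPKM in P, 11.5, 11.9 and 10.7 in P_ES10, and 15.5, 14.6 and 13.9 in P_ES50. Without PE it was 12.4, 12.6 and 10.7 FPKM in NC, 13.1, 11.4 and 12.9 in ES10, and 1.39, 0.440 and 1.64 in ES50. ES10, NC, P_ES10 and P overlapped in a chain, with P_ES50 above and ES50 below all of them. It fell in ES50 versus NC, at -2.62 ± 0.16 (limma adjusted p = 6.12e-10). That level rests on 8, 3 and 10 reads, and the summed reads gave a level 10.6-fold lower in ES50, with an exact 95% counting interval of 6.91 to 17.1. Scaled to total reads the change was -4.15. Its change was 0.36 ± 0.16 in P_ES50 versus P (limma adjusted p = 0.110), although the libraries did not overlap, as held for 50.6% of all tested genes. Without the ES50 libraries in the fit the same change had an adjusted p of 9.28e-04, and scaled to total reads it was -0.49. Changes after 10 pulses were small, at 0.02 ± 0.16 in P_ES10 versus P (0.960) and 0.06 ± 0.16 in ES10 versus NC (limma adjusted p = 0.895). The interaction of PE and 50 pulses was 2.98 ± 0.22 (limma adjusted p = 2.13e-08).

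**Figure D2:**
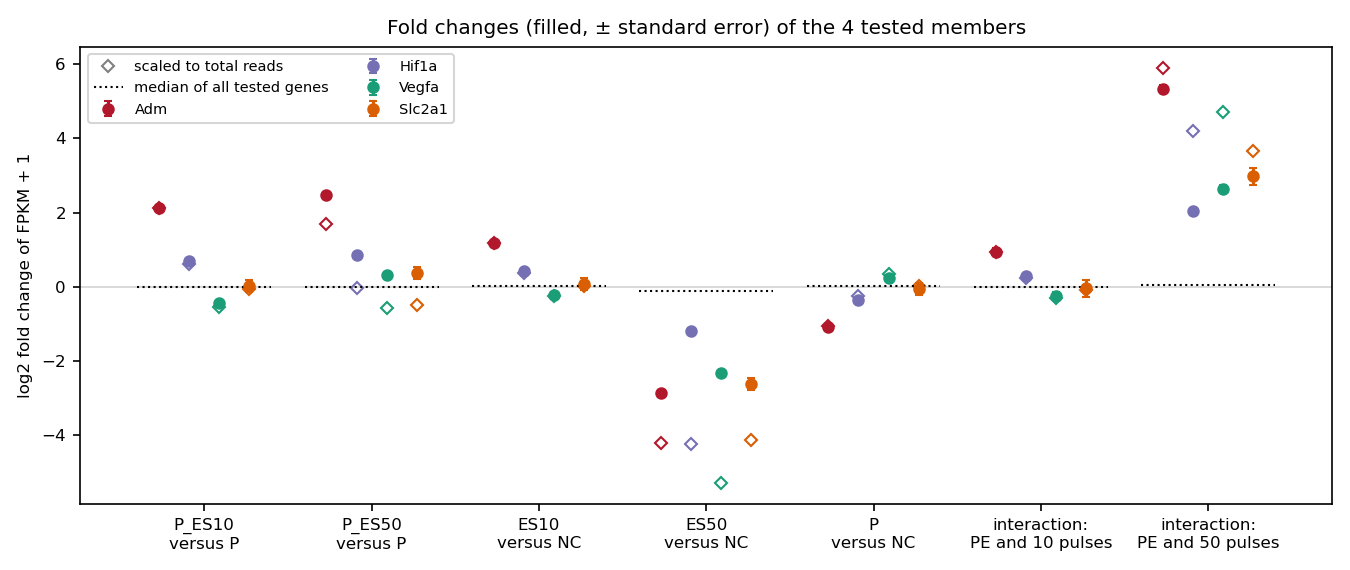
Log2 fold change of FPKM plus 1 of Adm, Hif1a, Vegfa and Slc2a1 in 5 comparisons and 2 interactions, filled with standard error as deposited and as open diamonds after scaling to total reads. Dotted lines are the median of all tested genes. Of the 4 genes, Adm moves farthest in P_ES10 versus P (2.13) and P_ES50 versus P (2.47), and the diamonds lie below 0 for Vegfa, Slc2a1 and Hif1a in P_ES50 versus P.

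The counts of tested members can be read against all genes. In P_ES10 versus P, 2 of the 4 tested members rose and 1 fell, where 13.2% and 9.66% of all tested genes were called higher and lower. In P_ES50 versus P, 3 rose and 0 fell, against 14.1% higher and 14.2% lower of all genes. Scaled to total reads, Adm was still called higher there, but Vegfa and Slc2a1 were called lower (limma adjusted p = 6.58e-07 and 1.91e-05). With that scaling 90 of all tested genes were higher and 10461 lower. In ES10 versus NC, 2 rose and 0 fell, against 6.36% higher and 2.21% lower. In ES50 versus NC, all 4 fell, and so did 40.1% of all tested genes while 31.9% rose. In P versus NC, 1 rose and 2 fell, against 4.72% higher and 4.81% lower. ES50 against ES10 gave 0 higher and 4 lower (33.0% and 41.3% of all genes), P_ES50 against P_ES10 gave 2 higher and 0 lower (10.5% and 12.9%), and P_ES50 against ES50 gave 4 higher and 0 lower (37.7% and 31.9%). Scaled to total reads, Adm, Slc2a1 and Hif1a were instead called lower in P_ES50 versus P_ES10 (limma adjusted p = 8.33e-06, 1.01e-04 and 2.77e-07). There 55 of all tested genes were higher and 10348 lower. P_ES10 and ES10 differed in 0 of the 4 members by limma, with 1 (Adm) at an unadjusted p under 0.05, where 0.688% of all genes were higher and 1.12% lower. The interaction of PE and 10 pulses was positive and called for 1 member (0.562% of all genes, with 0.344% negative), and that of PE and 50 pulses for 4 (31.1%, with 27.9% negative). These counts describe the 4 of 7 genes that passed the filter on low values. The genes were chosen with earlier results of these data known, so the shares of all genes are a scale and not a test.

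The balance of higher and lower calls over all genes changed with the scaling. It was 1573 higher and 1151 lower in P_ES10 versus P as deposited, 1521 and 2875 scaled to total reads, and 1077 and 1672 scaled to nuclear reads. In P_ES50 versus P it was 1679 and 1691 as deposited and 90 and 10461 scaled to total reads. In ES10 versus NC it was 758 and 263 as deposited, 920 and 761 scaled to total reads, 356 and 620 scaled to nuclear reads, and 699 and 534 after quantile normalization. In ES50 versus NC it was 3802 and 4781 as deposited and 34 and 11471 scaled to total reads, and in P versus NC 563 and 573 as deposited and 2431 and 558 scaled to total reads. ES50 versus ES10 gave 3932 and 4921 as deposited and 36 and 11479 scaled to total reads. P_ES50 versus P_ES10 gave 1249 and 1535 as deposited, 55 and 10348 scaled to total reads, and 1650 and 1196 scaled to nuclear reads. P_ES10 versus ES10 gave 82 and 133 as deposited and 326 and 152 scaled to total reads, and P_ES50 versus ES50 gave 4494 and 3800, and 11107 and 35. The interaction of PE and 10 pulses gave 67 and 41, and 94 and 171, and that of PE and 50 pulses 3706 and 3330, and 10572 and 19, in the same order. Across these scalings Adm remained higher in P_ES10 versus P, P_ES50 versus P and ES10 versus NC and lower in ES50 versus NC, with 1.68 in P_ES50 versus P after scaling to total reads.

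Ndrg1, a stress gene that is named for its repression by N-myc, and Egln3, an oxygen-sensing prolyl hydroxylase, were barely read. Ndrg1 (ENSRNOG00000007393, chromosome 7, 107734299 to 107775706, minus strand) was 0.426, 0.411 and 0.345 FPKM in P, 0.394, 0.518 and 0.440 in P_ES10, and 0.427, 0.116 and 0.0917 in P_ES50. Without PE it was 0.545, 0.531 and 0.325 FPKM in NC, 0.417, 0.405 and 0.542 in ES10, and had 0 reads in all ES50 libraries. The P_ES50 group was uneven, with 18 reads in replicate 1 and 5 and 4 in the others. A floor of 3 reads over the ES50 group, which is 0.143 FPKM, was 3.26-fold below the level from the summed NC reads. By the exact counting interval, the Ndrg1 level in ES50 was at least 2.60-fold lower than in NC. A two-sided exact permutation test gave p = 0.1, the lowest value possible with groups of 3. In a single ES50 library 3 reads would be 0.392 to 0.465 FPKM, near the NC level, so the absence of reads is not informative library by library.

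Egln3 (ENSRNOG00000005053, chromosome 6, 75050329 to 75075795, minus strand) had 1, 2 and 0 reads in P, 1, 0 and 0 in P_ES10, and 0, 0 and 6 in P_ES50. Without PE it had 2, 2 and 8 reads in NC, 0, 0 and 1 in ES10, and 0 in each ES50 library. Its means were at most 0.0582 FPKM in any group, and neighbours in the order of means overlapped throughout. Among groups that were not neighbours, the NC libraries lay above those of ES10, P_ES10 and P. That rests on 12 reads in NC against 1, 1 and 3, in that order. Over the ES50 group 3 reads would be 0.148 FPKM, above the NC level. A difference between ES50 and NC was therefore not detectable at this depth.

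**Figure D3:**
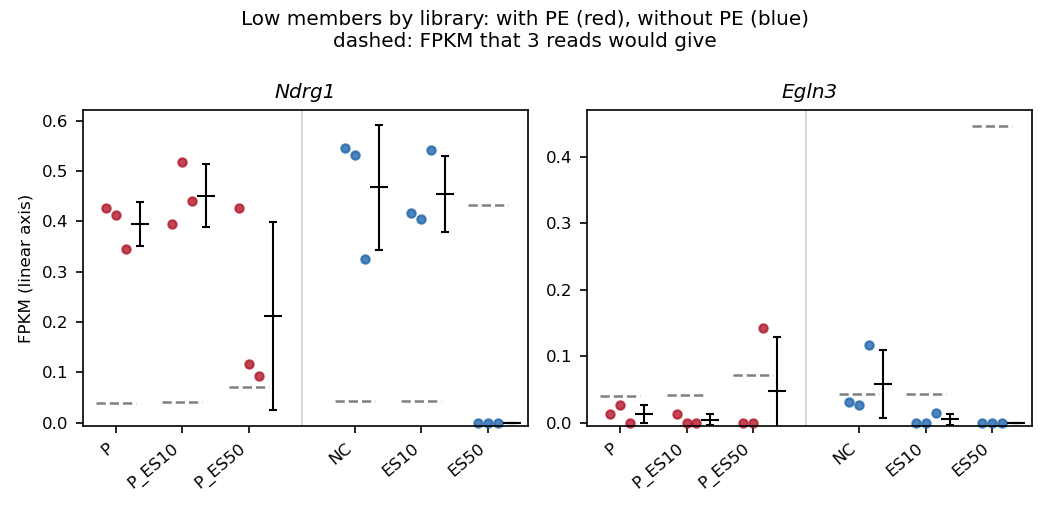
FPKM of Ndrg1 and Egln3 in every library, on linear axes, for the groups with PE (red) and without PE (blue). Black marks are the mean ± SD of 3 libraries, and dashed lines are the FPKM that 3 reads would give, as a mean over the group. Both genes have 0 reads in ES50, where 3 reads in a single library would give 0.392 to 0.480 FPKM over both genes, and the dashed line is the mean for each gene.

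Of 18 listed HIF subunits, hydroxylases, VHL complex members and coactivators, 16 were tested. In P_ES10 versus P, 3 rose and 1 fell, where 13.2% of all genes were called higher and 9.66% lower, and the median log2 fold change was 0.15 beside 0.00 for all genes. In ES10 versus NC, 2 rose and 0 fell, beside 6.36% and 2.21% of all genes, with a median of 0.10 beside 0.02. Cited2, which competes with HIF for its coactivators, rose by 0.36 ± 0.05 in P_ES10 versus P and by 0.35 ± 0.05 in ES10 versus NC (limma adjusted p = 6.77e-05 and 2.60e-04). It stood at 75.9 ± 2.49 FPKM in P_ES10 and 59.0 ± 3.31 in P. Crebbp, one of those coactivators, rose by 0.24 ± 0.08 and 0.30 ± 0.08. Siah2, a ubiquitin ligase that acts on EGLN hydroxylases, rose in P_ES10 versus P by 0.64 ± 0.16 and fell in P versus NC, at -0.54 ± 0.16 (limma adjusted p = 0.0483). Arnt, the constant partner subunit, fell in P versus NC, at -0.27 ± 0.08. There 0 of the list rose and 2 fell, beside 4.72% higher and 4.81% lower of all genes.

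In P_ES50 versus P, 6 of the 16 rose and 2 fell, beside 14.1% higher and 14.2% lower of all genes (median 0.13 beside -0.01, and -0.63 with scaling to total reads). In ES50 versus NC, 7 rose and 5 fell, beside 31.9% and 40.1% of all genes (median 0.03 beside -0.13, and -2.65 with scaling to total reads). Rbx1, a subunit of the VHL ligase, rose by 0.53 ± 0.09 in P_ES50 versus P and by 1.47 ± 0.09 in ES50 versus NC, but stood at -0.37 and -2.04 after scaling by total reads. Vhl rose by 0.30 ± 0.07 in P_ES50 versus P, against -0.54 with that scaling. Ep300, a coactivator of HIF, and Os9 fell in ES50 versus NC, at -2.12 ± 0.18 and -1.20 ± 0.06.

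Of the tested partners of the adrenomedullin peptide, Ackr3 changed most in P_ES10 versus P and in P_ES50 versus P, where it fell and Adm rose. Of 8 listed receptor, receptor-modifying and processing genes, 4 were tested. Ackr3, which encodes a scavenger receptor that also takes up adrenomedullin, fell in P_ES10 versus P (-0.43 ± 0.11, limma adjusted p = 0.0119) and in P_ES50 versus P (-1.87 ± 0.11, limma adjusted p = 1.07e-08). It was at 11.0 ± 0.732 FPKM in P_ES50 and 42.7 ± 1.39 in P, the groups in which Adm was at 32.8 ± 1.64 and 5.11 ± 0.426 FPKM. Pam, the enzyme that amidates the peptide, rose by 0.14 ± 0.04 in P_ES10 versus P and was at -0.03 ± 0.04 in P_ES50 versus P (limma adjusted p = 0.0329 and 0.626). Ackr3 and Pam both fell in ES50 versus NC, where Adm fell too, with Ackr3 at -1.60 ± 0.11 and Pam at -0.91 ± 0.04. In P_ES10 versus P 1 of the 4 rose and 1 fell (median -0.03 beside 0.00), where 13.2% of all genes were called higher and 9.66% lower. In P_ES50 versus P 0 rose and 1 fell (-0.07 beside -0.01), beside 14.1% and 14.2% of all genes. In ES50 versus NC 2 rose and 2 fell (-0.24 beside -0.13, and -2.67 with scaling to total reads), beside 31.9% and 40.1%. The genes that rose included Ramp1, at 2.08 ± 0.629 FPKM in ES50 and 0.0791 ± 0.0965 in NC. Ramp1 was at most 0.742 FPKM in any library outside ES50. It passed the filter on low values only through ES50, so its rise is no independent support. None was called by limma in ES10 versus NC (6.36% and 2.21% of all genes) or P versus NC (4.72% and 4.81%).

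Among 9 listed VEGF ligands and receptors, 6 were tested. Nrp1, a coreceptor for VEGF, fell in P_ES10 versus P (-0.42 ± 0.08, limma adjusted p = 0.00175) and in ES50 versus NC (-3.29 ± 0.08, limma adjusted p = 2.00e-14). It stood at 19.2 ± 1.22 FPKM in P_ES10 and 25.9 ± 0.591 in P. Nrp2 fell in ES50 versus NC (-2.57 ± 0.05) and in P versus NC (-0.27 ± 0.05), and rose in P_ES50 versus P (0.24 ± 0.05, and -0.64 when libraries were scaled by total reads). Of the 6, 1 rose and 2 fell in P_ES10 versus P, beside 13.2% higher and 9.66% lower of all genes. In P_ES50 versus P 1 rose and 1 fell (14.1% and 14.2% of all genes), and in ES10 versus NC 0 were called (6.36% and 2.21%). In ES50 versus NC 0 rose and 4 fell, beside 31.9% and 40.1% of all genes. The medians in that order were 0.04, -0.17, -0.11 and -0.73 as deposited, beside 0.00, -0.01, 0.02 and -0.13 for all genes. Scaled to total reads they were -0.05, -0.97, -0.15 and -2.56, beside -0.08, -0.77, -0.02 and -2.43. Quantile normalization gave -0.15 in ES50 versus NC, beside 0.07. Vegfc, a ligand of lymphatic vessels, was the one that rose in P_ES10 versus P (0.43 ± 0.13, limma adjusted p = 0.0238), and Flt1, a VEGF receptor, fell there beside Nrp1 (-0.47 ± 0.16, limma adjusted p = 0.0400). Pgf, placental growth factor, was the one that fell in P_ES50 versus P (-0.61 ± 0.18, limma adjusted p = 0.0206). It was low throughout, at 0.219 ± 0.204 FPKM in P_ES50, 0.849 ± 0.177 in P, 0.263 ± 0.273 in ES50 and 0.910 ± 0.0799 in NC. Few reads stand behind these levels in P_ES50 and ES50, where nuclear genes were read less deeply. Flt1 and Pgf also fell in ES50 versus NC, at -0.84 ± 0.16 and -0.62 ± 0.18, where Pgf was at 0.11 after quantile normalization.

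Of 10 other glucose transporter genes 4 were tested, and of 3 other NDRG genes 2 were. None of these was called by limma in P_ES10 versus P (13.2% higher and 9.66% lower of all genes), ES10 versus NC (6.36% and 2.21%) or P versus NC (4.72% and 4.81%). In P_ES50 versus P, Slc2a6 fell (-0.60 ± 0.18, limma adjusted p = 0.0192) and Ndrg4 fell (-0.36 ± 0.09, limma adjusted p = 0.00705), as did 14.2% of all genes. In ES50 versus NC, 3 of the 4 transporters fell, beside 40.1% of all genes. Slc2a6 was at -1.76 ± 0.18, Slc2a4 at -0.79 ± 0.15 and Slc2a8 at -0.58 ± 0.17. Ndrg4 fell there too, at -1.15 ± 0.09, and Ndrg3 rose by 1.28 ± 0.24 but was at -0.94 when scaled to total reads.

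A wider list held 40 HIF targets, and 33 of them were tested. In P_ES10 versus P, 5 rose and 5 fell, beside 13.2% higher and 9.66% lower of all genes (median -0.01 beside 0.00). In ES10 versus NC, 3 rose and 1 fell, beside 6.36% and 2.21% (0.07 beside 0.02, and -0.01 after quantile normalization). Hk2, a hexokinase that starts glycolysis, rose by 0.55 ± 0.06 and 0.49 ± 0.06 (limma adjusted p = 1.09e-05 and 1.10e-04). Angptl4, an inhibitor of lipoprotein lipase, rose by 1.15 ± 0.14 and 0.63 ± 0.14, to 2.41 ± 0.169 FPKM in P_ES10 against 0.543 ± 0.108 in P. Its highest library was at 0.957 FPKM in NC, 0.656 in P and 0 in ES50. Angptl4 thus passed the filter on low values only through ES10, P_ES10 and P_ES50, where it was high. Its rise, which is among those counted here, is therefore no independent support. Mxi1, an antagonist of Myc, fell by 0.56 ± 0.07 and 0.32 ± 0.07.

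After 50 pulses more of this list fell than rose. In P_ES50 versus P, 5 rose and 12 fell, beside 14.1% higher and 14.2% lower of all genes (median -0.15 beside -0.01, and -1.03 with scaling to total reads). In ES50 versus NC, 7 rose and 22 fell, beside 31.9% and 40.1% of all genes (median -0.89 beside -0.13, and -3.29 with that scaling). Bhlhe40 and Lox fell in both, at -0.73 ± 0.05 and -0.28 ± 0.04 in P_ES50 versus P, and at -1.75 ± 0.05 and -1.42 ± 0.04 in ES50 versus NC. With the deposited scaling, Adm, Hif1a and Vegfa were thus called higher in P_ES50 versus P where 12 of 33 other targets were called lower. In P versus NC, 1 rose and 3 fell, beside 4.72% higher and 4.81% lower of all genes (median -0.07 beside 0.00).

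**Figure D4:**
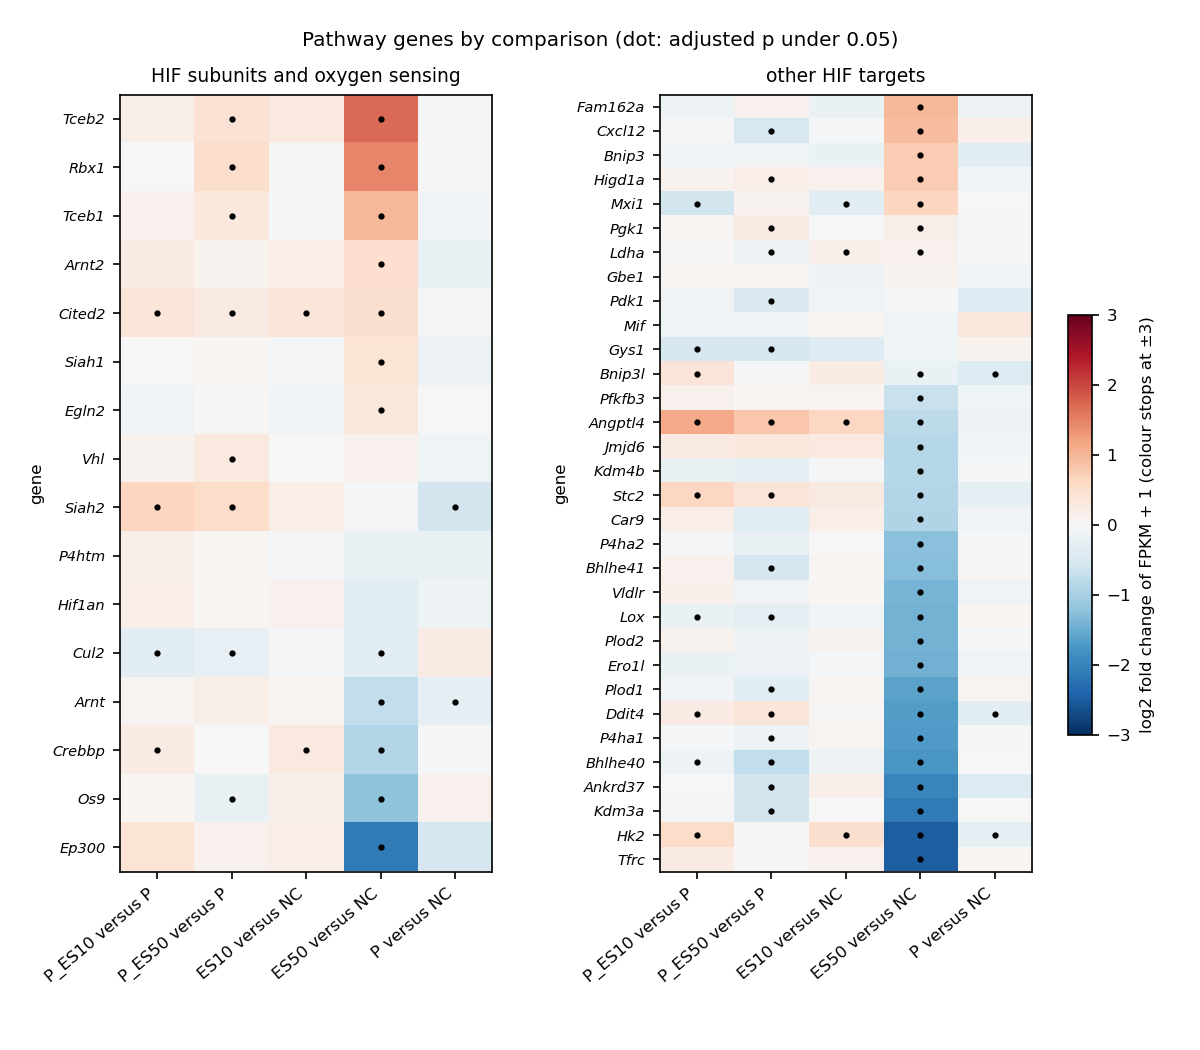
Log2 fold change of FPKM plus 1 of the tested HIF subunits and oxygen-sensing genes (16 genes, left) and of other HIF targets (32 of 33 genes, right) in 5 comparisons, ordered by ES50 versus NC. Dots mark calls at an adjusted p under 0.05. In ES50 versus NC most of the targets are marked as lower (22 of all 33 tested, beside 40.1% of all tested genes). Few genes are marked in ES10 versus NC.

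Genes whose log2 levels over the 18 libraries were most alike to a member, by Pearson correlation, were led for both Adm and Hif1a by Trim16, at r = 0.993 and 0.994. Adm was followed by Txnrd1 (0.982), a thioredoxin reductase, and Zfand2a (0.981), a stress-induced zinc finger gene. For Vegfa the phosphate transporter gene Slc20a1 (0.994), Tmem2 (0.991) and the cytokine gene Clcf1 (0.988) came closest. For Slc2a1 they were the lipid droplet gene Plin2 (0.991), Ncam1 (0.989) and the vitamin C transporter gene Slc23a2 (0.988), and for Hif1a also Ipo7 (0.982) and Pelo (0.981). All 11 of these genes had their lowest mean in ES50, so the 3 ES50 libraries weigh heavily in each r. Trim16 stood at 14.4 and 15.8 FPKM in P_ES10 and P_ES50 and at 7.13 in P, and at 16.6 and 2.86 FPKM in ES10 and ES50 and 10.3 in NC.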

How the data were processed

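Poly(A) RNA was sequenced from 18 libraries, 3 in each of 6 groups, grouped and numbered by their titles. Libraries started from 1 µg of RNA with random-hexamer priming, per the labels' protocols. Per the submitters' processing notes the genome was Rnor 6.0, and no aligner, counter or strandedness is given in the sources used here. Expression was deposited as FPKM for each gene. FPKM times gene length fell on whole numbers of a library's smallest step in 100% of values (tolerance 0.01 of a read), which gave the reads per gene. The median gene was about equal in all libraries (ratio 1.009 to the geometric mean library), so the deposited scaling follows the median gene.

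log2(FPKM + 1) was tested in limma 3.58.1 under R 4.3.3, with a mean-variance trend, a single model of 6 group means over 18 libraries and Benjamini-Hochberg adjustment over 11917 genes and a threshold of 0.05. The members and lists were chosen with earlier results of these data known. The text names all members, up to 4 genes per list and comparison by smallest adjusted p, and the 3 most alike genes per member. Genes with placeholder or duplicated symbols were left out of the last. A single listed HIF target is counted with its list but not reported here. Counting intervals and floors (3 reads) cover counting error only. The alternatives were another pseudocount, no filter, 3 other scalings, other samples in the fit, no trend, thinned reads, a replicate block and each library left out. The fit was also run on simulated reads drawn from NC levels, with known changes in a small set of genes. That setting lacks the wide shifts seen in ES50, so it does not test the scaling. Figures and summaries used the R package data.table (1.17.8), Python 3.11.15, numpy 2.4.6, pandas 2.3.3, scipy 1.17.1 and matplotlib 3.10.9.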

Additional observations from a re-analysis of the deposited data

Results flagged for a closer look

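The response to pulses differed between cells with and without PE for 5 results, each by limma's interaction term (response with PE minus response without). For 10 pulses this was Adm, at 0.93 ± 0.11, from changes of 2.13 in P_ES10 versus P and 1.19 in ES10 versus NC. For 50 pulses it was 5.34 ± 0.11 for Adm, 2.64 ± 0.09 for Vegfa, 2.98 ± 0.22 for Slc2a1 and 2.03 ± 0.09 for Hif1a. Without PE the mitochondrial share of reads after 50 pulses was 92.1 ± 0.728%, and with PE it was 48.6 ± 1.66% (SD, n = 3). The part of that share in the interactions was not tested, and the interaction of PE and 50 pulses was called positive for 31.1% and negative for 27.9% of all tested genes.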

How the results depend on the processing

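Of 424 member values under the alternatives other than leaving out a library, 388 kept direction and side of the threshold, 15 passed newly, 8 lost the call and 13 turned sign; with each library left out, 300 of 312 did, 6 lost the call and 6 turned sign. The median of all genes shifted, when libraries were scaled to total reads, by -0.76 (P_ES50 versus P), -0.68 (P_ES50 versus P_ES10), 1.66 (P_ES50 versus ES50), -2.27 (ES50 versus ES10), -2.30 (ES50 versus NC), 0.10 (P versus NC) and 1.60 (the interaction of PE and 50 pulses). After quantile normalization it shifted by -0.17 (P_ES50 versus ES50), 0.20 (ES50 versus NC), 0.21 (ES50 versus ES10) and -0.14 (that interaction).

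With scaling to total reads, P_ES50 versus P turned to -0.59 for Vegfa, -0.49 for Slc2a1 and -0.0326 for Hif1a, and P_ES50 versus P_ES10 to -0.44 for Adm, -0.0406 for Vegfa, -0.42 for Slc2a1 and -0.64 for Hif1a. Of these, Vegfa and Slc2a1 in P_ES50 versus P were then called lower. So were Adm, Slc2a1 and Hif1a in P_ES50 versus P_ES10. The same scaling turned uncalled values of Slc2a1 to 0.0302 in P versus NC and -0.0707 in P_ES10 versus P, and of Vegfa to 0.041 in P_ES10 versus ES10. With scaling to nuclear reads Slc2a1 was at -0.0255 in ES10 versus NC and -0.0564 in P_ES10 versus P, and on thinned reads at 0.00858 in the interaction of PE and 10 pulses. With a library left out, the uncalled values ranged for Slc2a1 from -0.00572 to 0.124 in ES10 versus NC, -0.0158 to 0.0569 in P_ES10 versus P and -0.107 to 0.0231 in the interaction of PE and 10 pulses, and for Vegfa from -0.0458 to 0.0317 in P_ES10 versus ES10.

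On thinned reads 1 member was called in P versus NC (3 as reported), 1 in P_ES50 versus P_ES10 (2) and 0 in the interaction of PE and 10 pulses (1). Without the ES50 libraries 4 were called in P_ES50 versus P_ES10 and 2 in that interaction, as with only the groups compared (2). With each library left out, the members called were 2 in P versus NC and as reported in the other comparisons. The cause of these changes was not tested.

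Counts over all genes moved by more than 1.5 times. As reported they were 1021 in ES10 versus NC, 1136 in P versus NC, 2724 in P_ES10 versus P, 3370 in P_ES50 versus P, 2784 in P_ES50 versus P_ES10, 215 in P_ES10 versus ES10, 108 in the interaction of PE and 10 pulses and 7036 in that of PE and 50 pulses. In the same order they were 1681, 2989, 4396, 10551, 10403, 478, 265 and 10591 with scaling to total reads. Without the ES50 libraries the 7 comparisons other than the last gave 2574, 3200, 4716, 5382, 4824, 1100 and 561, and on thinned reads 300, 276, 1176, 1437, 1214, 18 and 22. With only the groups compared, ES10 versus NC gave 2246, P versus NC 2724, P_ES10 versus P 4708, P_ES10 versus ES10 877 and the interaction of PE and 10 pulses 693. With each library left out these counts were 580 to 650 in ES10 versus NC, 626 to 763 in P versus NC, 78 to 98 in P_ES10 versus ES10 and 61 to 94 in that interaction.

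Same-numbered libraries did not deviate together (correlations of -0.0879 to 0.101, over 0.1 in 1 of 27 pairs, and highest for the own number in 8). With a replicate block 3 members were called in ES10 versus NC, with Vegfa at an adjusted p of 0.0370, and no other member call changed. Depth limits the ES50 levels, where Adm rests on 8 reads and Slc2a1 on 21 over 3 libraries.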
